A study of Mus musculus with 8 samples.

Results

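In 2666 mouse brain genes nearly all transcripts ended in the last exon, with few ending in an exon upstream of it, and the last exon itself carried a pair of cleavage and polyadenylation sites. These genes were taken from the 6147 genes with reads counted both upstream and at the 3′-most exon. A gene was kept where both places together averaged 20 or more reads per library, where at least 90% of its wild-type reads, summed over the wild-type libraries, lay in the 3′-most exon, and where the gene was also listed among the 7951 genes with a proximal and a distal site within that exon. Of the 6147 genes 6001 met the read minimum and 4038 of these had a site pair. The genes were thus chosen by the wild-type share of upstream ends, and every upstream value below is a description with no test.

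Total brain was taken from littermate mice aged 50 days on a C57BL/6NCrl background, and 3′ end libraries were made with a QuantSeq kit that reads from the poly(A) tail. The libraries came from 5 Cstf2 D50A mutant animals, in which aspartate at residue 50 of the cleavage factor CstF-64 is replaced by alanine, and from 3 wild-type animals. No animal was treated, and the line had been backcrossed and then bred within its colony. Sex and zygosity are not given in the sources used here. The animals are numbered mutant 1 to 5 and wild type 1 to 3, and p-values measure the spread between them.

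Cstf2 encodes the subunit of the cleavage stimulation factor that binds the U- or GU-rich element downstream of a cleavage site. Where a gene has a proximal and a distal site in its last exon, the choice between them sets the length of the 3′ untranslated region, and so which binding sites for microRNAs and proteins the mRNA holds. Cleavage in an upstream exon or its following intron removes the rest of the coding sequence and often changes the carboxyl end of the protein, and the U1 snRNP and elongation factors such as the PAF complex are known to restrain it.

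The exon table held 7075383 to 13145966 reads per library, of which 4417980 to 8425553 belonged to the 2666 genes, and the mutants (7768925 to 10279635) lay within the range of the wild types. The median gene had 8 to 14 upstream reads per library, so that the 95% Wilson interval of a single upstream share had a median width of 1.70 to 2.46 percentage points, against 3.83 to 5.33 points for a distal share. These intervals cover counting error only. In the annotation 526 of the genes (19.8%) span part of another protein-coding gene, and their reads are uncertain where strand was not used in counting. In 266 of the genes at least 1 library held no upstream read, and 2 of the 2666 had too few site reads to be tested for distal use. The brain marker lists of neurons and glia, read from the site pair table, were detected in every library, but the libraries differed in them. The mean level of 15 cerebellar granule cell markers was 6.20 to 6.24 log2 CPM (counts per 1000000 reads) in mutants 1 to 4 and 7.83 in mutant 5, against 7.73 to 7.91 in the wild types.

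Across the 2666 genes the 4 places of a transcript end kept the same order in every library, with the distal site ahead of the proximal site, then other positions in the last exon, then the upstream exon. The median distal share of all reads of a gene was 44.6, 43.8, 42.6, 42.4 and 40.3% in mutants 1 to 5, against 39.8, 39.9 and 41.9% in wild types 1 to 3. The median proximal share was 33.3, 33.7, 34.7, 34.7 and 36.1% in the mutants, against 35.2, 37.0 and 34.7% in the wild types. Mutant 5 lay within the range of the wild types at both sites, and wild type 3 lay nearest to the mutants.

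The median upstream share was 1.44, 1.58, 1.58, 1.68 and 1.79% in mutants 1 to 5, against 1.89, 1.79 and 1.74% in wild types 1 to 3. Reads elsewhere in the last exon had a median share of 3.26 to 3.51% in the mutants, against 3.30 to 3.48% in the wild types. The choice of genes kept upstream ends low in wild types, and they were at a few percent in mutants too. The genotypes overlapped in each of these medians. In 235 of the genes all reads of the last exon lay at the 2 listed sites, while in 400 more than 20% of wild-type reads lay elsewhere in it.

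**Figure D1:**
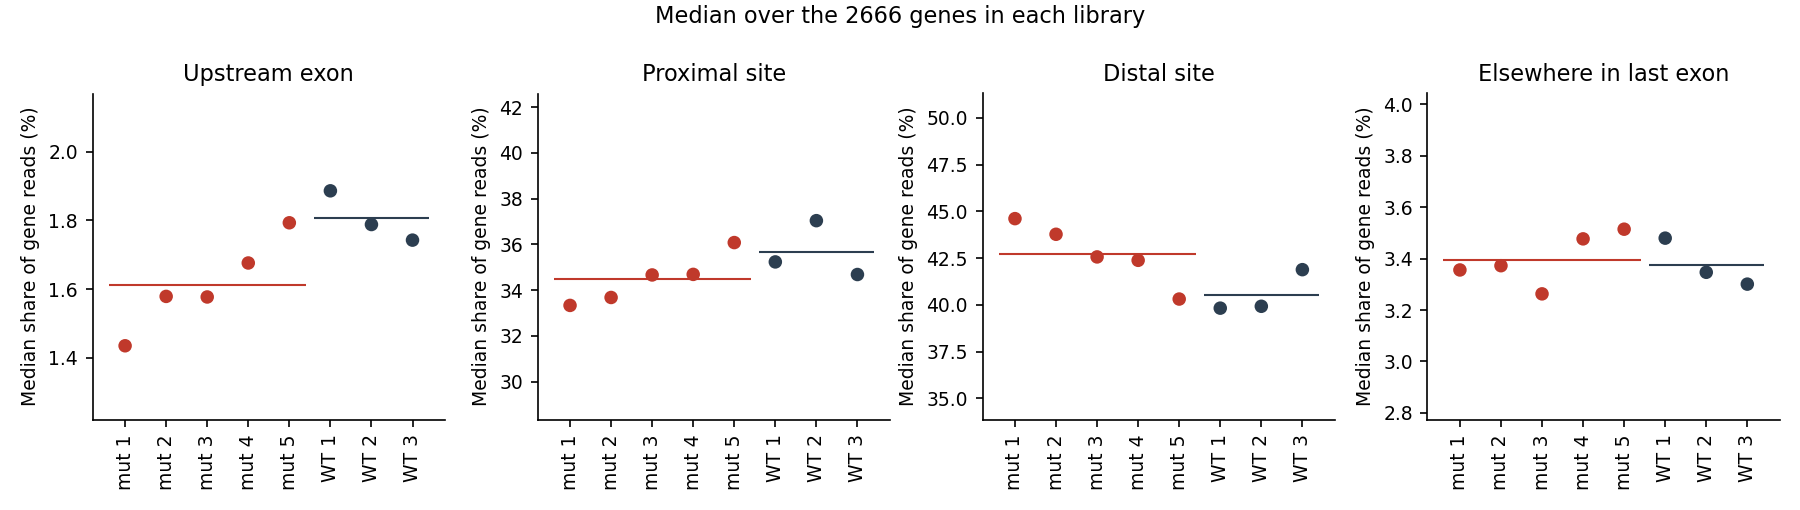
Median share of a gene's reads (percent, y axes not starting at 0) over the 2666 genes at the upstream exon, the proximal site, the distal site and elsewhere in the last exon, 1 point per library and a line at the mean of each genotype. The distal median lay at 40.3 to 44.6% in the 5 mutants and at 39.8 to 41.9% in the 3 wild types.

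Of the reads at the site pair alone, the distal site held a median of 54.8 ± 1.59% in mutants (SD, n = 5) and 52.8 ± 1.26% in wild types (SD, n = 3). Over all 7876 pairs that could be tested these medians were 54.7% in mutants and 52.2% in wild types. The distal share was higher in mutants in 1551 of the 2666 genes (58.2%), beside 58.8% of all pairs. The typical gene differed little, with a median difference of 0.28 percentage points, mutant minus wild type. The distal share was thus higher in mutants about as often here as among all pairs.

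The sites of a pair lay a median of 649 bases apart (quartiles 140 and 1769). Among the 561 pairs at most 100 bases apart the distal share was higher in mutants in 67.2%, beside 67.1% of all such pairs. It was higher in 55.8% of the 625 pairs 101 to 500 bases apart, in 55.6% of the 894 pairs 501 to 2000 bases apart and in 56.0% of the 586 pairs farther apart. The sites of 2 genes were far apart as listed, those of Atxn7l1 (124672 bases) and of the potassium channel gene Kcna1 (87149 bases), so that both listed sites may not lie in 1 exon.

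How rare the upstream ends were in wild type went with little difference in site use. In the 551 genes with a wild-type upstream share of up to 0.5%, the distal share was higher in mutants in 58.4%, against 58.8% of the 821 genes from 0.5 to 2%, 59.5% of the 731 genes from 2 to 5% and 55.2% of the 563 genes above 5%. Genes with rarer upstream ends also had more reads, with a median of 2832 reads per library in the lowest class and 379.5 in the highest. The genes themselves ranged from nearly pure proximal to nearly pure distal use, with a wild-type distal share under 10% in 550 and over 90% in 598.

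**Figure D2:**
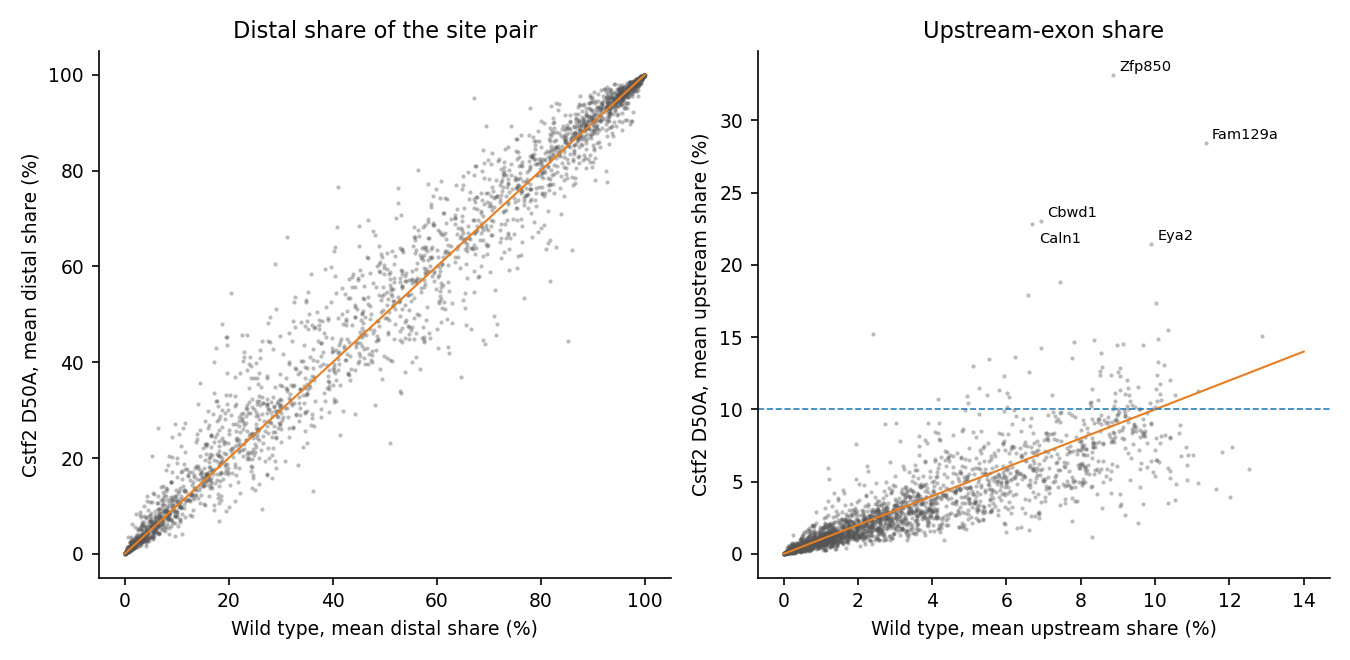
Mean share per gene in mutants (y axis, percent) against wild types (x axis, percent) for the 2666 genes, with the line of equality. Left, distal share of the site pair. Right, upstream share, where the dashed line marks 10% in mutants and the 5 named genes exceed 20% in pooled mutant reads.

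Within the last exon, edgeR called 0 of the 2664 tested genes at an adjusted p under 0.05, with a smallest adjusted p of 0.337 (0% of all 7876 pairs called). At an unadjusted p under 0.05 it listed 216 toward distal and 126 toward proximal use, where it listed 8.67% and 4.25% of all pairs. Without 1 of mutants 1 and 2 or wild types 1 and 2 it listed 61 to 122 and 38 to 62 (2.53 to 4.69% and 1.27 to 2.11% of all pairs). It listed 164 and 103 without mutant 3 (6.79% and 3.33%) and 201 and 104 without mutant 4 (7.31% and 3.55%). The counts were 517 and 256 without mutant 5 (18.7% and 8.97%) and 421 and 233 without wild type 3 (15.9% and 8.48%). The median log2 change in the ratio of distal to proximal reads was 0.10, beside 0.12 for all pairs. DESeq2 called 5 genes toward the distal site and 2 toward the proximal site, where it called 0.19% and 0.0762% of all pairs, and limma-voom called 0. Distal shares of the genotypes did not overlap in 106 genes, 62 toward the distal site (2.53% of all pairs) and 44 toward the proximal site (1.63% of all pairs). These counts stand near those of all pairs.

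The largest difference toward the distal site without overlap was at Max, whose product is the DNA-binding partner of MYC. Its distal share was 55.5, 53.6, 48.0, 46.5 and 37.5% in mutants 1 to 5, against 24.4, 22.2 and 35.9% in wild types 1 to 3 (mean 48.2 ± 7.05% in mutants and 27.5 ± 7.41% in wild types). Mutant 5 and wild type 3 lay next to each other at the border between the genotypes. The proximal site of Max gave 93.2 ± 17.6 CPM in mutants and 136 ± 16.7 CPM in wild types, while its distal site gave 86.4 ± 13.2 in mutants and 54.0 ± 25.9 CPM in wild types. The log2 change was 1.32 (SE 0.297, edgeR adjusted p = 0.38, DESeq2 adjusted p = 0.0374), and over 13 fits, this one and its alternatives, the adjusted p ran from 0.0374 to 0.816.

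Medag, named for its role in fat cell formation, held 56.5, 59.0, 46.8, 46.8 and 53.4% of its pair reads at the distal site in mutants 1 to 5, against 27.9, 28.2 and 41.3% in wild types 1 to 3. Cpxm2, a carboxypeptidase-like protein, held 54.8, 58.3, 60.0, 60.2 and 53.5% in the mutants, against 39.4, 45.2 and 45.0% in the wild types. Col5a1, a chain of type V collagen, held 81.7, 82.5, 82.2, 80.0 and 72.4% in the mutants, against 65.8, 63.4 and 69.0% in the wild types. In each of these genes all mutants lay above all wild types, which was required for naming them.

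Tmem62, a transmembrane protein, stood at 74.3 ± 5.5% in mutants and 61.5 ± 5.16% in wild types. The chemokine Cxcl14 stood at 47.8 ± 5.69% in mutants and 36.0 ± 4.22% in wild types. Their log2 changes were 0.88 (SE 0.303) and 0.70 (SE 0.225), and edgeR gave an adjusted p of 0.38 for each of the 6 genes from Max to Cxcl14.

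More proximal use in mutants separated the genotypes at a pair of potassium channel genes. Kcnn3, a small-conductance calcium-activated channel, held 58.3, 58.0, 62.7, 57.7 and 38.5% of its pair reads at the distal site in mutants 1 to 5, against 66.7, 80.6 and 66.2% in wild types 1 to 3. Kcnb2, the Kv2.2 channel, held 63.5, 59.7, 64.5, 60.9 and 60.0% in the mutants, against 80.4, 70.1 and 66.7% in the wild types. At Kcnn3 mutant 5 was far below the other mutants, and at Kcnb2 the 5 mutants lay within 5 points of each other. Both genes had few reads, with 7 to 52 proximal reads per library at Kcnn3.

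The Rap effector Radil stood at a distal share of 15.8 ± 4.33% in mutants and 28.4 ± 6.65% in wild types. Its proximal site gave 7.35 ± 0.735 CPM in mutants and 4.03 ± 2.03 CPM in wild types, without overlap, while its distal site gave 1.37 ± 0.342 in mutants and 1.46 ± 0.203 CPM in wild types. Radil overlaps Papolb in the annotation, so its reads cannot be assigned with certainty. At Edrf1, named as an erythroid differentiation factor, the share was 13.3 ± 2.29% in mutants and 25.1 ± 9.29% in wild types, and its proximal level, which overlapped between the genotypes, was 9.95 ± 4.3 CPM in mutants and 4.20 ± 2.58 CPM in wild types.

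Pex13, a docking protein of peroxisomal import, held 16.6 ± 4.89% at the distal site in mutants and 27.3 ± 2.8% in wild types. Sarm1, the NAD-cleaving enzyme of axon degeneration, held 44.8 ± 3.81% in mutants and 54.7 ± 2.78% in wild types. The log2 changes of the 6 proximal genes ran from -0.57 for Sarm1 (SE 0.211) to -1.12 for Edrf1 (SE 0.386), with an edgeR adjusted p of 0.38 for each except Kcnb2 at 0.388. Pex13 overlaps Pus10, Sarm1 overlaps Slc46a1, and Kcnb2 overlaps an uncharacterised gene.

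**Figure D3:**
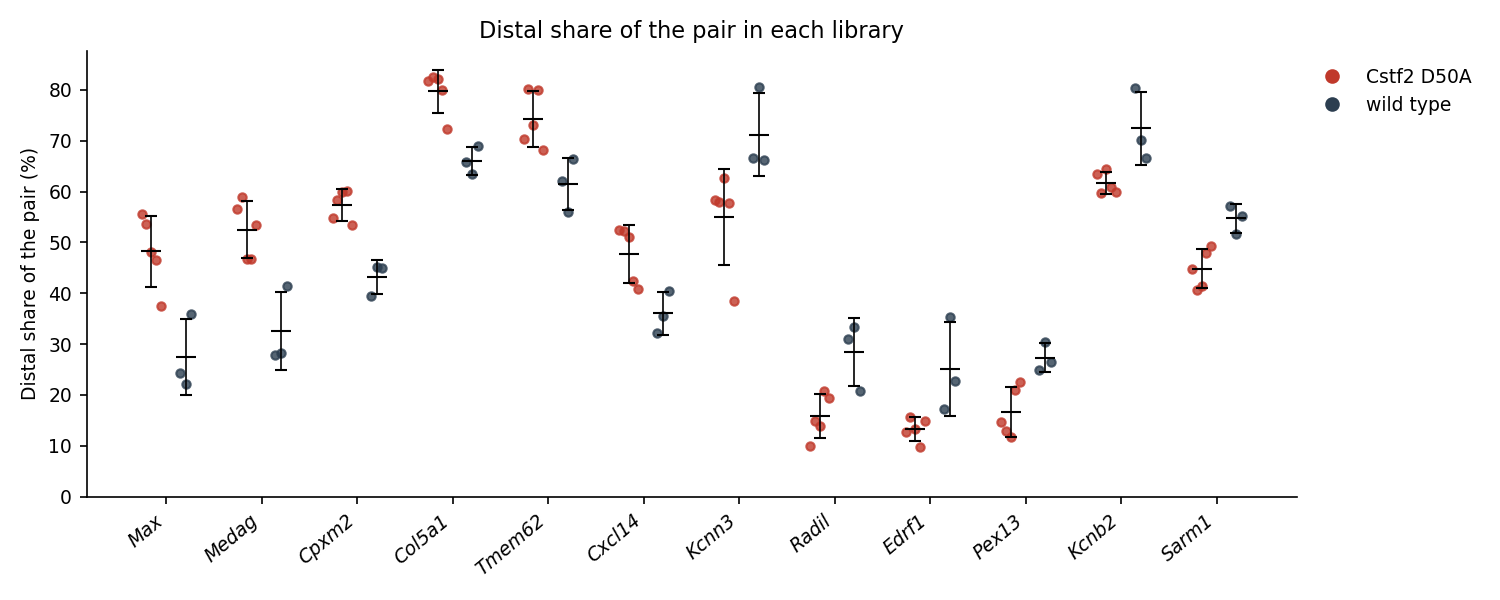
Distal share of the site pair (percent, y axis) in each library for the 6 genes with the largest higher and the 6 with the largest lower distal share in mutants among those without overlap. Points are libraries, mutants left and wild types right of each gene, with bars at the mean and SD. At Max the mutants lay at 37.5 to 55.5% and the wild types at 22.2 to 35.9%.

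DESeq2 called Max and 6 more genes for use within the last exon, which are described here after their values were seen. In all 6 the edgeR adjusted p was 0.337 to 0.38, and in 5 of them the distal shares of the genotypes overlapped. With the 3 places side by side, the mutant level was 3.72 to 5.85 times the wild-type level at 1 place of each gene and 0.447 to 1.62 times at the other places.

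Rgs7bp, which anchors RGS7-family regulators of G protein signalling at the membrane, showed the largest difference in distal level. Its distal site (position 105735986 of build mm9 as listed, 3610 bases from the proximal site at 105739596) had 907, 1011, 394, 1418 and 141 reads in mutants 1 to 5, against 49, 41 and 301 reads in wild types 1 to 3. Its proximal site had 16, 28, 28, 21 and 19 reads in the mutants, against 25, 50 and 32 reads in the wild types. Scaled to library totals, the distal site averaged 84.7 ± 52.8 CPM in mutants and 14.6 ± 16.6 CPM in wild types, 5.82 times as much in mutants, and wild type 3 exceeded mutant 5.

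The proximal site of Rgs7bp averaged 2.46 ± 0.51 CPM in mutants and 3.64 ± 0.145 CPM in wild types, and its upstream exon 1.21 ± 0.842 in mutants and 0.747 ± 0.464 CPM in wild types. The distal share of the pair was 95.1 ± 4.43% in mutants and 67.2 ± 22.7% in wild types (log2 change 3.45, SE 0.905, edgeR adjusted p = 0.38, DESeq2 adjusted p = 0.0265), and the upstream share was 1.57 ± 0.709% in mutants and 4.06 ± 1.31% in wild types.

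Fbxl16, an F-box protein, was added for its upstream share and was called for its site pair in none of 13 fits (edgeR adjusted p = 0.38, lowest 0.0625 by edgeR without mutant 5). Its distal site had 1583, 1883, 969, 2556 and 447 reads in mutants 1 to 5, against 176, 239 and 776 reads in wild types 1 to 3. That is 163 ± 82.4 CPM in mutants and 43.3 ± 37.8 CPM in wild types, while the proximal site, 68 bases away, gave 2.32 ± 0.5 in mutants and 2.26 ± 1.27 CPM in wild types. Its upstream exon gave 1.38 ± 0.339 CPM in mutants and 2.80 ± 0.655 CPM in wild types, and its upstream share was 0.62, 0.472, 1.10, 0.692 and 3.10% in mutants 1 to 5, against 11.9, 10.2 and 2.76% in wild types 1 to 3. Mutants 1 to 4 lay below all wild types, and mutant 5 lay above wild type 3.

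At Ugt8a, whose enzyme makes the galactolipids of myelin, the minor distal site took a larger part of the reads in mutants by DESeq2 and not by edgeR. The distal site had 85, 103, 61, 111 and 23 reads in mutants 1 to 5, against 7, 11 and 25 reads in wild types 1 to 3, a distal share of 6.19 ± 1.69% in mutants and 1.40 ± 0.617% in wild types (log2 change 2.19, SE 0.35, edgeR adjusted p = 0.337, DESeq2 adjusted p = 0.000831). Its distal level was 5.47 times as high in mutants (8.43 ± 3.81 in mutants and 1.54 ± 1.09 CPM in wild types), its proximal level 1.22 times (124 ± 44.9 in mutants and 101 ± 25.3 CPM in wild types), and its upstream level 0.995 times (8.73 ± 1.16 in mutants and 8.77 ± 1.96 CPM in wild types). Every mutant share lay above every wild-type share.

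Ap1b1, the beta subunit of the AP-1 clathrin adaptor, used its distal site for 4.62, 4.72, 2.47, 5.05 and 0.965% of pair reads in mutants 1 to 5, against 0.279, 0.104 and 1.48% in wild types 1 to 3. Its distal level was 9.94 ± 4.27 CPM in mutants and 1.82 ± 2.21 CPM in wild types, beside a proximal level of 286 ± 49 in mutants and 302 ± 56.5 CPM in wild types. Ap1b1 overlaps Nefh, and its reads are uncertain for that reason. Ccdc32, a coiled-coil protein, used its distal site for 25.3, 28.5, 17.1, 24.1 and 7.29% in the mutants, against 3.12, 2.58 and 9.86% in the wild types, with 42.4 ± 2.85 in mutants and 45.1 ± 2.75 CPM in wild types at the proximal site. In both genes mutants 1 to 4 lay above all wild types and mutant 5 lay below wild type 3.

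Megf9, a membrane protein with EGF-like domains, differed at the proximal site. It had 100, 139, 60, 157 and 17 proximal reads in mutants 1 to 5, against 5, 6 and 37 in wild types 1 to 3, or 10.3 ± 5.96 CPM in mutants and 1.77 ± 2.06 CPM in wild types. The distal site gave 6.71 ± 1.1 CPM in mutants and 8.29 ± 1.73 CPM in wild types. The distal share was 44.4 ± 20.1% in mutants and 85.2 ± 13.5% in wild types (log2 change -2.99, SE 0.798, edgeR adjusted p = 0.38, DESeq2 adjusted p = 0.0374).

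Dnm1, the dynamin of synaptic vesicle endocytosis, had 84, 80, 97, 101 and 51 reads at its minor proximal site in mutants 1 to 5, against 6, 25 and 41 reads in wild types 1 to 3. The proximal level was 9.10 ± 1.96 CPM in mutants and 2.45 ± 1.93 CPM in wild types, without overlap, and the distal level was 113 ± 20.4 in mutants and 104 ± 37.3 CPM in wild types. Dnm1 also ended upstream in many reads, at 18.4, 16.2, 17.0, 16.6 and 7.05% in mutants 1 to 5, against 21.9, 4.72 and 12.1% in wild types 1 to 3. Its distal share fell to 92.3 ± 2.42% in mutants, against 97.8 ± 1.6% in wild types, by DESeq2 (log2 change -1.94, SE 0.497, adjusted p = 0.0374) and not by edgeR (adjusted p = 0.38).

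Frmd8, a FERM-domain protein that binds iRhoms, differed at the upstream exon. Its upstream share was 20.8, 20.5, 11.9, 19.2 and 3.59% in mutants 1 to 5, against 1.72, 0.673 and 4.87% in wild types 1 to 3, a mean of 15.2 ± 7.45% in mutants and 2.42 ± 2.18% in wild types. Its upstream level was 11.6 ± 5.73 CPM in mutants and 1.79 ± 1.41 CPM in wild types, 6.46 times as high. Its proximal level was 50.4 ± 9.38 CPM in mutants and 64.1 ± 12.2 CPM in wild types, and its distal level 13.4 ± 2.55 in mutants and 13.9 ± 1.33 CPM in wild types, so that the use of its site pair differed little (log2 change 0.29, SE 0.312, edgeR adjusted p = 0.651).

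**Figure D4:**
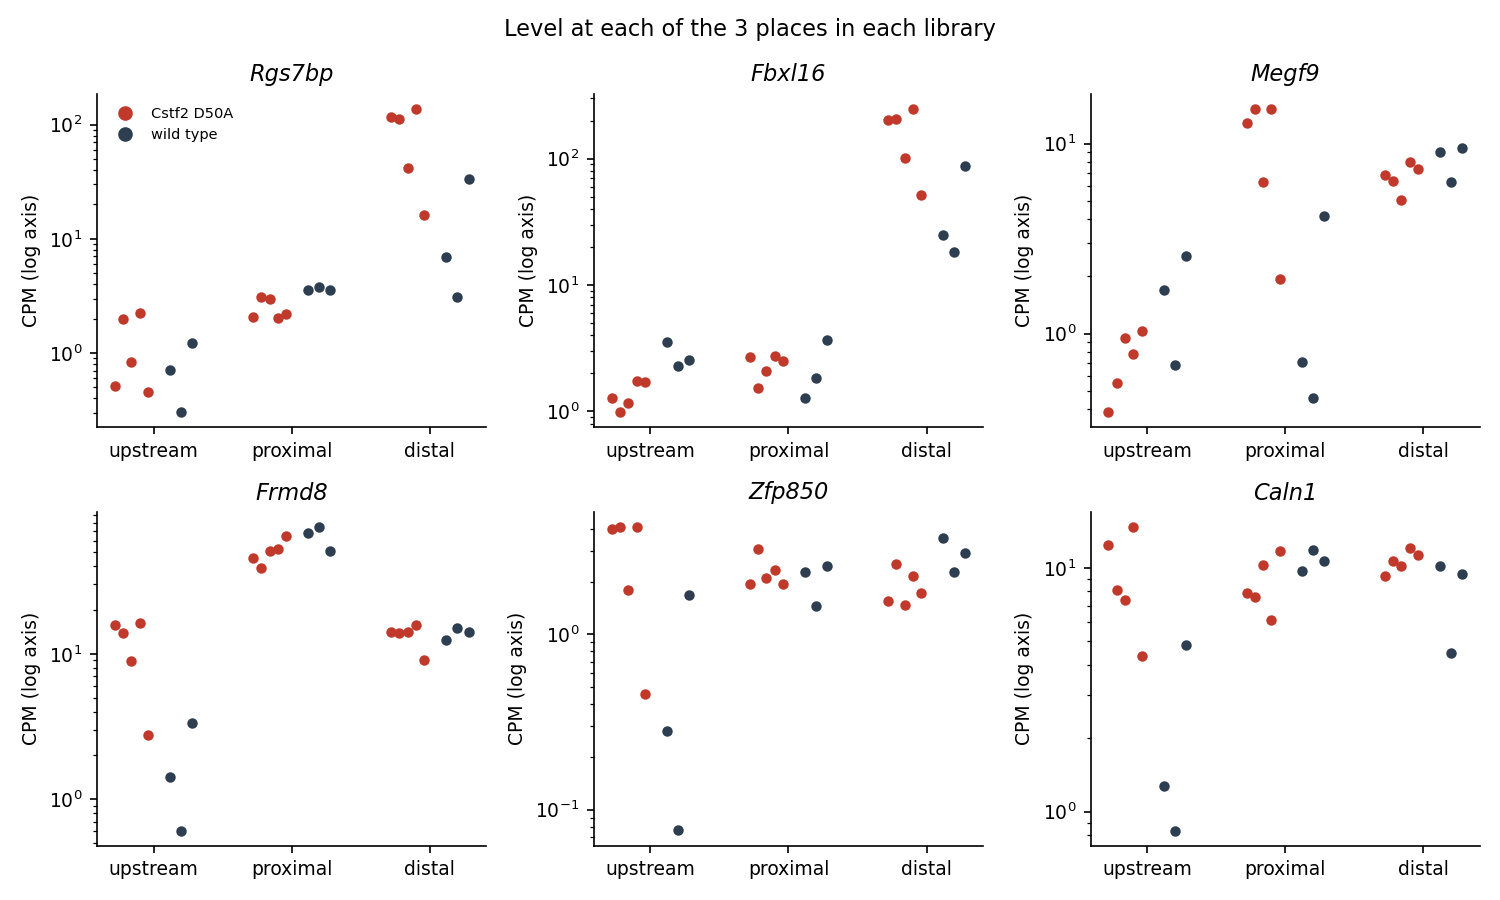
Level at the upstream exon, the proximal site and the distal site (CPM of the exon table, log axis) in each library for 6 genes, mutants left and wild types right of each place. In each gene 1 place differed most: the distal site in Rgs7bp and Fbxl16, the proximal site in Megf9, and the upstream exon in Frmd8, Zfp850 and Caln1.

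At the place that differed most in Rgs7bp, Fbxl16, Ugt8a, Ap1b1, Ccdc32, Megf9 and Frmd8, the level was highest in mutants 1, 2 and 4, lower in mutant 3, and within the range of the wild types in mutant 5. In the granule cell markers mutant 3 stood with mutants 1, 2 and 4 (6.20 to 6.24 log2 CPM) and mutant 5 at 7.83, against 7.73 to 7.91 in the wild types, and wild type 3, which stood nearest to the mutants in those genes, was at 7.73. For 9 Purkinje cell markers the mean was 4.94 to 5.13 in mutants 1 to 4 and 5.68 in mutant 5, against 5.50 to 5.91 in wild types. For 4 endothelial and pericyte markers it was 6.15, 5.95, 5.77, 6.21 and 5.52 in mutants 1 to 5, against 5.15, 5.40 and 5.77 in wild types 1 to 3, and for 10 cortical and hippocampal neuron markers 6.80 to 7.16 in mutants, against 6.16 to 6.96 in wild types. Of the measured markers, 2 of 15, 3 of 9, 4 of 4 and 9 of 10 had a higher mean in mutants in these 4 lists. Summed, the granule cell markers gave 5719 to 9210 CPM in mutants and 6884 to 9634 CPM in wild types, the Purkinje cell markers 471 to 866 in mutants and 785 to 935 in wild types, and the endothelial and pericyte markers 287 to 651 in mutants and 248 to 465 in wild types. The summed cortical and hippocampal neuron markers gave 7995 to 9319 CPM in mutants and 4278 to 7900 CPM in wild types, without overlap. No marker of these lists was at 0 in any library. Their part in the site use of these genes was not tested.

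The upstream share chose the genes, so its values are given as a description. Pooled over libraries it had a median of 1.72% in mutants (quartiles 0.594 and 4.01) and 1.90% in wild types (quartiles 0.63 and 4.37), and 891 genes lay under 1% in wild types. It was higher in mutants in 42.3% of the genes, beside 37.3% of all 6001 genes. The genotypes did not overlap in 100 genes with less upstream use in mutants and 50 with more, where 4.23% and 1.65% of all genes did so. These counts rest on the measure that chose the genes. With 1 library left out they ran from 113 to 330 and from 64 to 204, highest without wild type 3. Of all genes, 4.78 to 17.3% and 2.17 to 6.93% then did so. The counts were 245 and 138 without mutant 5 (11.998% and 4.70% of all genes) and 153 and 67 without mutant 4 (5.88% and 2.25%). They were 170 and 107 without wild type 1 (6.70% and 3.50%) and 195 and 108 without wild type 2 (7.73% and 3.35%). Less upstream use without overlap made up 9.19% of the 2666 genes without mutant 5 and 12.4% without wild type 3, below all genes in both cases. More upstream use made up 5.18% and 7.65%, above all genes in both cases.

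The 90% limit was drawn in wild types, so mutants could exceed 10% upstream ends while pooled wild types could not. In pooled reads 75 of the 2666 genes exceeded 10% in mutants. Counted per library, 96, 108, 104, 115 and 108 genes exceeded it in mutants 1 to 5, against 129, 81 and 86 in wild types 1 to 3. When the genes were chosen with 1 wild type left out, that wild type exceeded 10% in more genes than before, with 175 genes in wild type 1 (mutants 97 to 121), 148 in wild type 2 (mutants 72 to 126) and 119 in wild type 3 (mutants 105 to 134). A library that took no part in the choice thus crossed the limit as often in wild type as in mutants, or more often.

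Just inside the limit, by upstream reads in pooled wild types, stood Fam129a, Eml4 and Patz1, and just outside it Unc80, Hyal1 and Zdhhc6. Mean upstream shares were 28.4% in mutants and 11.4% in wild types for Fam129a, 7.69% in mutants and 10.1% in wild types for Eml4, and 9.02% in mutants and 9.89% in wild types for Patz1. Just outside they were 5.88% in mutants and 10.8% in wild types for Unc80, 8.23% in mutants and 9.75% in wild types for Hyal1, and 9.11% in mutants and 11.0% in wild types for Zdhhc6. These genes were picked for lying nearest the limit in pooled wild types, so their closeness there is set by the choice.

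In 5 genes the pooled mutant share exceeded 20%, and they are described after their values were seen. Zfp850, a zinc finger gene, had 31, 37, 17, 42 and 4 upstream reads in mutants 1 to 5, against 2, 1 and 15 in wild types 1 to 3, or 33.2 ± 15.3% of its reads in mutants and 8.86 ± 10.9% in wild types. Cbwd1, whose product belongs to a family of zinc-regulated GTPases, had 69, 86, 65, 97 and 13 upstream reads in the mutants, against 13, 10 and 21 in the wild types. Caln1, a calcium sensor of the calneuron family, had 96, 74, 70, 151 and 38 in the mutants, against 9, 11 and 43 in the wild types. In each gene mutants 1 to 4 were above all wild types and mutant 5 was below wild type 3. Caln1 overlaps a gene listed as A330070K13Rik.

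The upstream level was 4.24 times as high in mutants for Zfp850, 4.38 times for Cbwd1 and 4.07 times for Caln1. For Eya2, a transcriptional coactivator with phosphatase activity, it was 2.00 times as high, with an upstream share of 21.4 ± 8.47% in mutants and 9.90 ± 3.78% in wild types. At the proximal and distal sites of these 4 genes the mutant level was 0.647 times (distal site of Zfp850) to 1.34 times (distal site of Caln1) the wild-type level. Elsewhere in the last exon it was 1.97 times for Cbwd1, 1.10 times for Caln1 and 0.804 times for Zfp850, and Eya2 had no reads there. The last of the 5, Fam129a (now Niban1), had only 21.5 reads per library and 3 to 11 upstream reads per mutant, against 2 in each wild type.

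Among genes with more reads and no overlap, upstream use was higher in mutants at Proca1, Arid4a, Samd12, 2810021J22Rik, Rrp8 and Grm3. Arid4a, an RB-binding chromatin protein, stood at 14.8 ± 3.32% in mutants and 8.36 ± 0.762% in wild types. Samd12 ended upstream in 11.3, 13.7, 12.5, 11.0 and 14.3% of reads in mutants 1 to 5, against 4.68, 7.67 and 7.47% in wild types 1 to 3. Grm3, the metabotropic glutamate receptor mGluR3, ended upstream in 14.5, 16.7, 17.3, 13.4 and 12.4% in the mutants, against 12.2, 6.21 and 11.9% in the wild types.

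Both Samd12 and Grm3 had many upstream reads in every mutant, and the use of their site pairs differed by less than the spread between animals. The distal share of Samd12 was 97.5 ± 0.94% in mutants and 97.7 ± 1.77% in wild types, and that of Grm3 71.7 ± 4.17% in mutants and 73.2 ± 6.62% in wild types. Proca1 stood at an upstream share of 14.7 ± 2.98% in mutants and 7.82 ± 3.97% in wild types, and the rRNA methyltransferase gene Rrp8, which overlaps Ilk, at 11.1 ± 1.83% in mutants and 6.01 ± 2.85% in wild types.

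Upstream use was lower in mutants, without overlap, at Thrb, Naaa, Dlc1, Cmip, 5730455P16Rik and Hikeshi. Thrb, the thyroid hormone receptor beta, ended upstream in 2.35, 2.75, 1.36, 3.37 and 3.51% of reads in mutants 1 to 5, against 10.8, 9.92 and 6.92% in wild types 1 to 3. Dlc1, a GTPase-activating protein, ended upstream in 4.90, 4.70, 6.12, 4.52 and 6.15% in the mutants, against 12.9, 9.70 and 8.59% in the wild types. At Thrb 2 to 7 upstream reads per mutant, against 10 to 13 per wild type, lie behind these shares, and at Dlc1 46 to 66, against 78 to 128.

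The genotypes separated at 2 of the 3 places of Dlc1. Its upstream level was 6.13 ± 0.826 CPM in mutants and 10.3 ± 0.646 CPM in wild types, and its proximal level 16.6 ± 2.59 CPM in mutants and 10.2 ± 3.36 CPM in wild types, both without overlap. Its distal level was 61.3 ± 7.65 CPM in mutants and 61.7 ± 6.59 CPM in wild types. Its distal share was 78.6 ± 3.89% in mutants and 86.0 ± 3.02% in wild types (log2 change -0.74, SE 0.264, edgeR adjusted p = 0.38).

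For Cmip, the c-Maf-inducing protein, the upstream level was alike, at 35.2 ± 5.27 CPM in mutants and 32.3 ± 4.34 CPM in wild types. Its proximal site had 3161, 3357, 3167, 4331 and 2165 reads in mutants 1 to 5, against 538, 2419 and 2271 in wild types 1 to 3, and its upstream share was 6.16 ± 1.12% in mutants and 10.8 ± 3.93% in wild types. Hikeshi, a carrier that imports HSP70 into the nucleus, had an upstream level of 1.94 ± 0.913 CPM in mutants and 3.61 ± 0.679 CPM in wild types, with a distal level of 5.60 ± 2.17 in mutants and 2.63 ± 0.86 CPM in wild types.

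**Figure D5:**
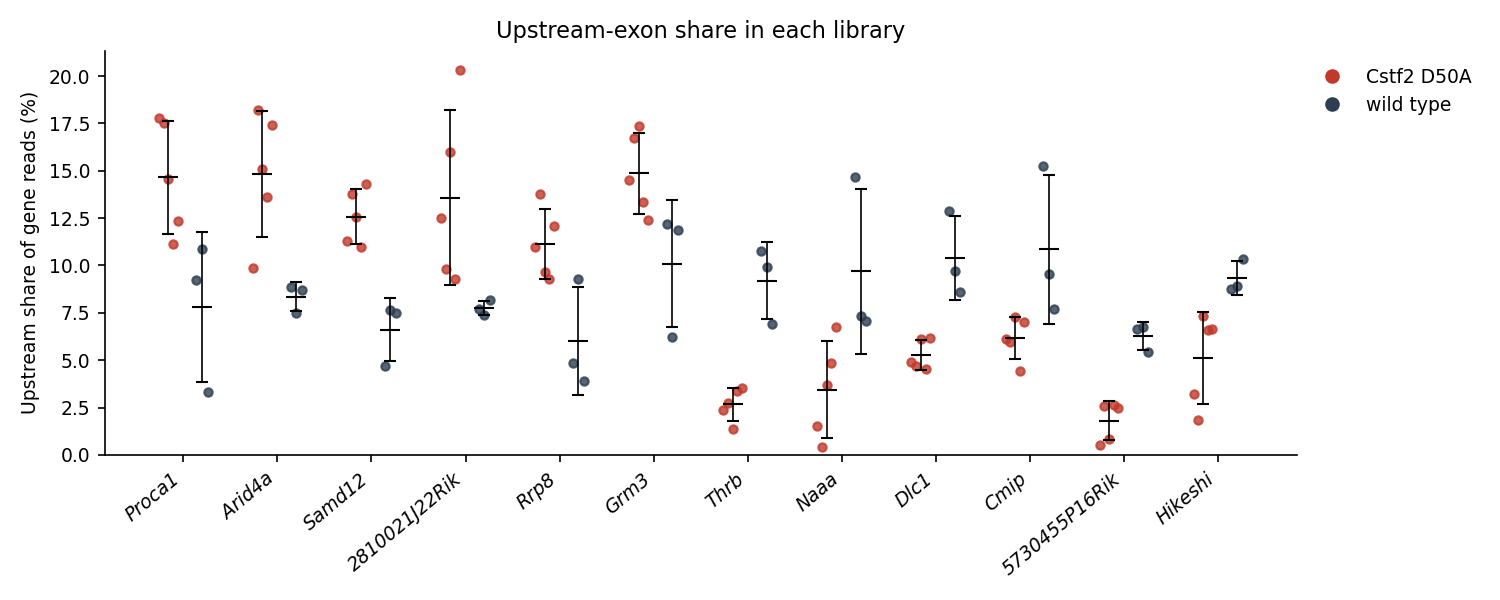
Upstream share of a gene's reads (percent, y axis) in each library for 12 genes whose genotypes did not overlap, 6 with more and 6 with less upstream use in mutants. Points are libraries, mutants left and wild types right of each gene, with bars at the mean and SD. At Thrb the mutants lay at 1.36 to 3.51% and the wild types at 6.92 to 10.8%.

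In 4 named genes the genotypes separated in both upstream share and distal share. Naaa, the lysosomal amidase of N-acylethanolamines, stood at an upstream share of 3.45 ± 2.54% in mutants and 9.68 ± 4.34% in wild types and a distal share of 85.5 ± 1.3% in mutants and 87.8 ± 0.425% in wild types. Dnajc11, a mitochondrial J-domain protein, stood at an upstream share of 1.88 ± 0.431% in mutants and 0.99 ± 0.0776% in wild types and a distal share of 30.4 ± 4.35% in mutants and 23.4 ± 0.699% in wild types. Alkbh3, a demethylase of alkylated nucleic acids, stood at an upstream share of 5.84 ± 1.25% in mutants and 8.55 ± 0.252% in wild types and a distal share of 84.9 ± 1.96% in mutants and 80.1 ± 2.27% in wild types. Dgcr2, an adhesion receptor, stood at an upstream share of 3.11 ± 0.362% in mutants and 3.87 ± 0.173% in wild types and a distal share of 90.5 ± 1.64% in mutants and 92.9 ± 0.437% in wild types.

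The directions differed among these genes. Mutants had smaller upstream and distal shares at Naaa and Dgcr2, a smaller upstream and a larger distal share at Alkbh3, and larger upstream and distal shares at Dnajc11.

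Taken over the genes together, the level at each place differed little between genotypes. The median log2 ratio of mutant to wild-type CPM over all 2666 genes was -0.05 at the upstream exon, -0.02 at the proximal site and 0.10 at the distal site. Elsewhere in the last exon it was 0.07, over the 2426 genes with reads there in both genotypes. The distal level was higher in mutants in 59.8% of the genes, the upstream level in 45.0% and the proximal level in 47.9%.

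Total levels are the sum of upstream and last-exon reads, scaled between libraries by each tool (TMM for edgeR). They were called for 0 of the 2666 genes by edgeR and by DESeq2 (0% of all 6001 genes by edgeR). At an unadjusted p under 0.05 edgeR listed 175 as higher and 203 as lower in mutants, where it listed 7.6% and 7.47% of all genes. Without 1 of mutants 1 to 4 or wild types 1 and 2 it listed 65 to 154 and 47 to 139 (3.58 to 7.15% and 1.91 to 5.44% of all genes), and without mutant 5 or wild type 3 it listed 364 to 428 and 381 to 454 (15.5 to 17.9% and 13.98 to 14.7%). The levels did not overlap in 58 genes with a higher and 68 with a lower level in mutants, where 2.28% and 2.5% of all genes did so. With 1 library left out these counts ran from 62 to 379 and from 72 to 477, highest without wild type 3. Of all genes, 2.45 to 15.5% and 2.72 to 15.4% then did so. The counts were 209 and 247 without mutant 5 (9.02% and 9.80% of all genes). They were 151 and 130 without wild type 2 (5.28% and 4.92%) and 94 and 95 without wild type 1 (3.92% and 3.78%). In whole brain, fewer cells of a type and less RNA per cell cannot be told apart.

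Cnpy1, of the canopy protein family, had 1.22, 1.10, 0.85, 1.40 and 6.57 log2 CPM in mutants 1 to 5, against 6.69, 6.70 and 6.87 in wild types 1 to 3. Chn2, the beta-chimaerin GTPase-activating protein for Rac, had 7.80, 7.79, 7.72, 7.94 and 9.03 log2 CPM in the mutants, against 9.10, 9.05 and 9.23 in the wild types. Pvalb, the calcium buffer of fast-spiking interneurons and Purkinje cells, had 8.04, 8.02, 8.13, 8.03 and 9.81 log2 CPM in the mutants, against 9.62 to 10.42 in the wild types. In these genes mutants 1 to 4 stood far below, and mutant 5 beside or among the wild types, as in the granule cell markers, of which Chn2 is 1.

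The log2 change of Cnpy1 was -2.40 (SE 1.17, edgeR adjusted p = 0.344) and that of Chn2 -0.98 (SE 0.281, edgeR adjusted p = 0.327). Without mutant 5 they were -5.73 and -1.32, with edgeR adjusted p of 3.99e-08 and 0.000269, and edgeR then called 1 gene higher and 19 lower, where it called 0.35% and 0.732% of all genes. In mutants 1 to 4 the granule cell markers stood at 6.20 to 6.24 log2 CPM, against 7.73 to 7.91 in the wild types, and their part in these levels was not tested.

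Site use in the same genes was as follows. The distal share of Chn2 was 94.6 ± 0.805% in mutants and 95.4 ± 0.317% in wild types, and that of Cnpy1 79.3 ± 9.26% in mutants and 84.8 ± 3.61% in wild types. Cmip and Sorcs2, a sorting receptor of neurons, had the largest higher levels without overlap, with log2 changes of 0.76 (SE 0.235) and 0.77 (SE 0.227), and Ppp2r2d, a regulatory subunit of protein phosphatase 2A, had -0.60 (SE 0.158), each with an edgeR adjusted p of 0.327.

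Among the most abundant of the genes, Nrgn, the postsynaptic protein neurogranin, used its distal site for 80.2, 78.4, 75.1, 77.1 and 75.0% in mutants 1 to 5, against 75.4, 72.5 and 73.4% in wild types 1 to 3. Rtn1, a reticulon of the endoplasmic reticulum, stood at 42.3 ± 1.86% in mutants and 40.1 ± 3.05% in wild types, and Atp6v0e2, a subunit of the vacuolar ATPase, at 0.469 ± 0.0642% in mutants and 0.511 ± 0.021% in wild types. The genotypes overlapped in Nrgn, where mutants 3 and 5 lay below wild type 1.

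Some genes used sites other than the listed pair. Of the reads of Tmem167, 75.4 ± 2.41% lay elsewhere in its last exon in mutants, against 71.8 ± 1.32% in wild types.

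Cstf2 itself belongs to the 2666 genes. It ended upstream in 0.284, 0.311, 0.173, 0.461 and 0.167% of reads in mutants 1 to 5, against 0.178, 0.12 and 0.245% in wild types 1 to 3, and its total level was 8.93 ± 0.144 log2 CPM in mutants and 8.94 ± 0.136 log2 CPM in wild types. A coding substitution need not change these counts, so they do not check the labels. Of 30 genes listed for cleavage and polyadenylation, poly(A)-binding proteins included, Cstf2, Pabpc1 and Cpsf7 met the rule. Cpsf7, a subunit of cleavage factor I that overlaps Tmem216, used its distal site for 45.1, 42.5, 35.2, 41.9 and 19.8% of pair reads in mutants 1 to 5, against 14.9, 13.5 and 35.1% in wild types 1 to 3 (log2 change 1.21, SE 0.499, edgeR adjusted p = 0.38).

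Of 23 listed regulators of premature cleavage, the snRNP protein Snrpd3 and the PAF complex subunits Rtf1 and Cdc73 met the rule. Their upstream shares were 0.459 ± 0.124% in mutants and 0.59 ± 0.124% in wild types for Snrpd3, 2.55 ± 0.416% in mutants and 2.65 ± 0.454% in wild types for Rtf1, and 1.88 ± 0.616% in mutants and 2.80 ± 0.374% in wild types for Cdc73. Their distal log2 changes were -0.01, 0.11 and -0.28.

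Neuronal lists held more of the genes, and edgeR called 0 members of any list for site use, where it called 0% of all pairs. At an unadjusted p under 0.05 it listed 2 toward distal and 2 toward proximal use among 18 presynaptic genes (8.67% and 4.25% over all pairs), 2 and 3 of 22 glutamatergic postsynapse genes, 2 and 0 of 11 GABAergic synapse genes, 0 and 0 of 12 voltage-gated channel genes, and 3 and 0 of 23 genes of microtubule motors and the axonal cytoskeleton. It listed 2 and 0 of 16 ubiquitin-proteasome genes, 0 and 0 of 21 oxidative phosphorylation genes and 3 and 1 of 19 X-linked intellectual disability genes. Median log2 changes were 0.16, 0.29, 0.10, -0.22, 0.11, 0.42, 0.05 and 0.15 in that order, beside 0.12 over all pairs.

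Among the neuronal genes Dlg3, a postsynaptic scaffold of the X chromosome, used its distal site for 97.5, 97.9, 97.6, 96.7 and 96.1% of pair reads in mutants 1 to 5, against 94.7, 94.3 and 96.5% in wild types 1 to 3 (log2 change 0.81, SE 0.251, edgeR adjusted p = 0.38). Stmn1, the microtubule-destabilising stathmin, used its minor distal site for 0.345, 0.387, 0.366, 0.231 and 0.204% in the mutants, against 0.183, 0.209 and 0.174% in the wild types. Both overlapped at mutant 5. Genotypes did not overlap in distal use toward the distal site at Sh3gl2, Gria1, Mapre3 and Ube3a, among others, and toward the proximal site at Kcnb2, with at most 1 gene of a list in either direction (2.53% and 1.63% of all pairs).

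Upstream shares did not overlap, with less upstream use in mutants, in 2 of the 18 presynaptic genes (Syp and Unc13a), 1 of 22 postsynaptic (Dlg4), 2 of 11 GABAergic (Gad1 and Gabbr2), 1 of 12 channel (Scn8a), 1 of 23 microtubule (Kif1a), 1 of 16 ubiquitin (Ube4b) and 2 of 19 X-linked genes (Sms and again Syp), beside 4.23% of all genes. With more upstream use in mutants they did not overlap in 1 postsynaptic (Grm3), 1 ubiquitin (Ube2d3), 1 oxidative phosphorylation (Ndufa5) and 1 X-linked gene (Zdhhc9), beside 1.65% of all genes. Scn8a, the sodium channel Nav1.6, ended upstream in 1.21, 1.37, 1.53, 1.26 and 1.95% of reads in mutants 1 to 5, against 4.30, 2.53 and 2.06% in wild types 1 to 3, and Dlg4, the scaffold PSD-95, in 0.788, 0.916, 0.865, 1.09 and 1.08% in the mutants, against 1.51, 1.21 and 1.17% in the wild types. Ube2d3, a ubiquitin-conjugating enzyme, ended upstream in 0.239 ± 0.0501% of reads in mutants and 0.083 ± 0.0463% in wild types.

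Counts of separated genes depended on single libraries, most on mutant 5 and wild type 3. Without mutant 5 the distal shares of the genotypes did not overlap in 335 genes toward distal use (11.9% of all pairs) and 175 toward proximal use (6.28%), and without wild type 3 in 428 (16.5%) and 264 (9.59%). Without mutant 4 the counts were 116 and 85, without wild type 1 they were 132 and 79, and without wild type 2 they were 110 and 82, where 4.37 to 4.81% of all pairs separated toward distal and at least 2.91% toward proximal use. edgeR called 0 of the 2664 tested genes for distal use in either case, where it called 0% of all pairs without mutant 5 and 0.0127% without wild type 3. Leaving out libraries also lowers the bar for separation, since fewer values have to lie on 1 side.

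Set beside genes of other kinds, the distal and upstream medians ran the same way. In the 1372 genes with a site pair and more than 10% upstream ends in wild type, the distal site held a median of 57.1 ± 3.29% of pair reads in mutants and 54.7 ± 2.47% in wild types. Their median upstream share was 21.9 ± 1.94% in mutants and 25.9 ± 2.70% in wild types. Their median proximal share of all reads was 20.9% in mutants and 20.9% in wild types. In the 2666 genes that proximal median was 34.5% in mutants and 35.7% in wild types. In the 908 genes with rare upstream ends and no listed pair the median upstream share was 2.01 ± 0.0977% in mutants and 2.15 ± 0.133% in wild types, beside 1.61 ± 0.133% in mutants and 1.81 ± 0.0732% in wild types in the 2666 genes. These differences between sets of genes were not tested.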

How the data were processed

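Total brain of 5 Cstf2 D50A and 3 wild-type mice was profiled with 3′ end libraries (QuantSeq 3′ mRNA-Seq REV), per the labels' protocols. The authors deposited whole-number read counts per site and library in 2 tables, per the file headers, and the counts were used as deposited. STAR 2.5, HTSeq 0.6.0, FastQC 0.11.3 and build mm9 are listed without roles, per the submitters' processing notes. How sites were chosen, how priming inside transcripts was filtered and whether strand was used are not given in the sources used here. The files give positions and no chromosome, and genes were matched by symbol, 2657 of 2666 to a RefSeq table of GRCm38.p6, used only for names and overlapping genes.

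The upstream share is upstream over upstream plus 3′-most exon reads, and the distal share is distal over both sites of the pair. In all 2666 genes the last-exon count equalled or exceeded that of both sites together, so the tables share reads. CPM was computed as reads per 1000000 of the exon table's total at each place, and log2 CPM of total levels with edgeR (TMM, prior count 2). For site use, edgeR's quasi-likelihood test was fitted with library blocks and a site by genotype interaction, over all pairs averaging 20 or more reads with 10 or more at each site (7876 pairs, 6001 exon pairs), and total levels with genotype as the only term. A positive change means more distal or more last-exon reads, or a higher level, in mutants. p-values were adjusted by Benjamini and Hochberg over each table at a threshold of 0.05. Since upstream use chose the genes, calls from its fit are not read as results for them. DESeq2 calls on it only added genes to describe. The fits were tested on simulated data. DESeq2, limma-voom, other filters and scalings and leaving out each library were tried. Versions were DESeq2 1.42.0, edgeR 4.0.16 and limma 3.58.1 in R 4.3.3.

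Genes, lists and tests were chosen with earlier results of these data known, and no list was tested as a set. Among the 2656 genes not sharing all counts with another gene, those named were the 6 with the largest difference of distal share in each direction among genes of 50 or more reads without overlap of the genotypes, likewise for upstream share (40 or more upstream reads in all) and, 3 each, for level. Also named were 4 separated in both shares, the 4 with most reads, up to 3 of each function list, Cstf2, genes at the 90% limit, and the genes with most reads at neither site. Genes called by DESeq2 in either whole table, over 20% upstream in mutants, or with sites far apart were added after their values were seen. A few genes that the rule names are not reported here. Libraries of a genotype differed beyond sampling noise (chi-square per degree of freedom 5.29 to 136), so none was a copy. All value columns matched a sample, and 0 were left unused.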

Additional observations from a re-analysis of the deposited data

Results flagged for a closer look

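In 6 of 66 sets of 5 mutant values checked, 1 library stood apart from the others by Dixon's criterion, which chance meets in about 1 of 20 sets, and the library was mutant 5 in each. The distal share of Col5a1 was 72.4% in mutant 5 and 80.0 to 82.5% in the other mutants, and that of Kcnn3 38.5% and 57.7 to 62.7%. The log2 CPM of Cnpy1 was 6.57 in mutant 5 and 0.85 to 1.40 in the other mutants, and that of Chn2 9.03 and 7.72 to 7.94. The upstream share of Dnm1 was 7.05% in mutant 5 and 16.2 to 18.4% in the other mutants, and that of Fbxl16 3.10% and 0.472 to 1.10%. At Kcnn3 mutant 5 lay farther from the wild types than the other mutants did, and at the other 5 values it lay nearer to some or all of them.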

How the results depend on the processing

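DESeq2 called 5 of the 2666 genes toward distal and 2 toward proximal use, where edgeR called 0. Leaving out 1 library at a time, edgeR called 0 to 1 higher and 0 to 19 lower in level, the highest without mutant 5. The cause was not tested. The median difference in upstream share was -0.057 points, and -0.126 or -0.103 where the 90% limit was set on the mutants (2800 genes) or on all 8 libraries (2753 genes), so its size depends on which libraries chose the genes. The upstream measure chose the genes, so calls from its fit are not read as results. Its median fitted log2 change (0.11 toward the last exon) ran from 0.07 to 0.14 over all fits. The median difference kept its sign under these settings and without any 1 library, as did the median difference in distal share (0.212 to 0.395 without 1 library). DESeq2 also placed 7 named distal changes past the threshold (Max, Ugt8a, Rgs7bp, Ap1b1, Ccdc32, Megf9 and Dnm1), as leaving out mutant 5 did for the levels of Cnpy1 and Chn2. No paired analysis was possible because the replicate numbers follow the order of the records and only name the libraries. With about 10 upstream reads per gene and library, small differences in upstream share were not detectable for most single genes.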
